A study of Rattus norvegicus with 9 samples.

Results

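Sox9, Sox5, Sox6, Runx1, Runx2, Runx3, Sp7, Scx, Mkx and Tnmd were followed through intact synovium, sham-operated synovium and regenerating meniscal tissue of the rat. These are regulators of cartilage, bone and tendon cell fate, except for Tnmd, which encodes tenomodulin, a membrane protein used as a marker of tendon cells and not a transcription factor. They were picked by gene symbol, with earlier results of these data known, and make up 10 of the 17602 genes in the deposited table. Their counts set beside those of all genes are therefore only a description. All 10 passed the filter for testing (a value above 0 in 3 or more libraries), as did 16512 genes in all. The table lists them under the gene identifiers 140586 (Sox9), 140587 (Sox5), 293165 (Sox6), 50662 (Runx1), 367218 (Runx2), 156726 (Runx3), 300260 (Sp7), 680712 (Scx), 291228 (Mkx) and 64104 (Tnmd).

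SOX9 is the master transcription factor of chondrocytes, and SOX5 and SOX6 are related factors that bind beside it and strengthen its action on genes of the cartilage matrix such as Acan and Col2a1. RUNX2 and SP7 (osterix) act in sequence in osteoblast formation, RUNX2 also drives chondrocyte hypertrophy, and RUNX1 and RUNX3 are better known from blood cells although skeletal progenitors and chondrocytes express them as well. SCX (scleraxis) marks tendon and ligament progenitors, MKX (mohawk) maintains the tendon program and represses the cartilage program, and Tnmd is a gene acting downstream of SCX. The meniscus is a fibrocartilage in which cells with features of both chondrocytes and tendon cells are found.

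All libraries came from wild-type male Lewis rats of 10 to 12 weeks, with 3 libraries in each group. The intact group was synovium around the medial meniscus of knees without surgery, and the sham group was the same tissue 1 week after the joint capsule had been opened and closed. The pMx group was regenerative tissue 1 week after partial medial meniscectomy, in which the meniscotibial ligament was cut and the anterior part of the medial meniscus removed. That tissue was cut at its visible border with the remaining meniscus and freed from the synovium around it, so in the pMx versus sham comparison the effects of the surgery and of the tissue sampled cannot be told apart. The titles call the libraries biological replicates, but neither the labels nor the methods say that each came from a different animal. According to the methods both knees of a rat had the meniscectomy, so libraries of the pMx group could share an animal. The p-values therefore measure only the spread between these libraries.

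The table gives TPM, a measure of transcript abundance that corrects for transcript length and adds up to the same total in every library. It keeps no read numbers, so the depth is unknown and the error given here is the spread over the 3 libraries of a group. Genes above 0 TPM numbered 15914 to 15965 in the intact libraries, 16074 to 16125 in the sham libraries and 15644 to 15794 in the pMx libraries. All 8 markers of synovial fibroblasts were present, summing to 8290 to 10467 TPM in intact synovium, 6896 to 8409 TPM in sham synovium and 4758 to 5810 TPM in regenerative tissue. Most of each sum was Dcn and Prg4, and the list did not move as 1 block. In pMx versus sham 1 marker rose and 4 fell. Thy1 and Clic5 are given as examples, chosen after their values were seen. Thy1 measured 249.98 to 401.83 TPM in the sham and 965.51 to 1074.34 TPM in the pMx libraries. Clic5 measured 156.90 to 308.02 TPM in the sham and 8.86 to 17.25 TPM in the pMx libraries. Replicate 3 of the intact group stood apart, since 12 skeletal muscle genes summed to 53099 TPM in it and to 80.8 to 3700 TPM in the other libraries. Results that rest on that library are therefore given with and without it. The RNA integrity that the study lists for these samples was lowest in intact synovium, higher in sham synovium and highest in regenerative tissue, without overlap. RNA quality and group therefore cannot be told apart in any comparison, and the groups of Runx1, Runx2 and Runx3 lay in that same order and those of Sox5 and Sox6 in its reverse.

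In pMx versus sham, Sox9, Runx1, Runx2, Runx3, Sp7 and Scx rose, Sox5 and Sox6 fell, and Mkx and Tnmd did not pass the test (limma on log2(TPM + 1), Benjamini-Hochberg adjusted p below 0.05). That is 8 of the 10 genes, 6 higher and 2 lower, where 36.6% of all genes tested passed (17.7% higher and 18.9% lower). The same 8 genes had no overlap between the pMx and sham libraries, which held for 56.1% of all genes (27% higher and 29% lower). The study's rule for a differentially expressed gene (DEG) also asks for an absolute log2 fold change above 1. Here its thresholds were applied to the limma fit, so the DEGs given are not the study's own calls. The number was 5, namely Sox9, Sp7, Runx1, Runx2 and Scx, all higher, against 8.21% of all genes (3.36% higher and 4.85% lower). The number of DEGs was 5 or 6 in all settings tried. Sox6, close to the limit, was the sixth with a pseudocount of 0.1 or 0.01 and without sham replicate 2, sham replicate 3 or pMx replicate 1, and Tnmd was the sixth in the fit of only the 6 libraries and without intact replicate 3. The median log2 fold change was 1.40 over the 10 genes and -0.01 over all genes tested.

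In sham versus intact, Runx2 and Runx3 rose and Sox5 and Sox6 fell, so that 4 of the 10 genes passed, 2 in each direction, against 12.7% of all genes tested (6.73% higher and 5.97% lower). The libraries did not overlap for 5 genes, these 4 and Runx1 (3 higher, 2 lower), where 30.6% of all genes did not overlap (14.2% higher and 16.4% lower). None of the 10 was a DEG, against 1.96% of all genes (1.42% higher and 0.533% lower), while 6 of the 10 had an unadjusted p below 0.05 and 1 of these, Scx, a log2 fold change above 1. The number of DEGs was 1 in 3 other settings, namely Runx2 with a pseudocount of 0.1 or 0.01 and Scx without intact replicate 3. The median log2 fold change was 0.30 over the 10 genes and -0.02 over all genes tested. The count of 4 depended on the libraries. It was 0 without sham replicate 1 or sham replicate 2, 2 without intact replicate 1, intact replicate 2, pMx replicate 1 or pMx replicate 2, and 0 when limma was fitted to only the 6 libraries of the 2 groups. In the 3 fits with a count of 0, 5 of the 10 genes had an unadjusted p below 0.05.

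In pMx versus intact, 8 of the 10 genes passed, 6 higher and 2 lower, where 50.6% of all genes tested passed (23.4% higher and 27.1% lower), and all 8 were DEGs, against 14.3% of all genes (6.4% higher and 7.89% lower). The libraries of these 8 genes did not overlap, which held for 57.5% of all genes (26.9% higher and 30.6% lower). The number of DEGs was 7 with quantile normalization and without intact replicate 2, which left out Sox5. It was 9, with Tnmd added, with a pseudocount of 0.1 or 0.01, with a minimum mean of 1 TPM and without intact replicate 3, and it was 8 without pMx replicate 3, where Tnmd took the place of Sox5. The median log2 fold change was 1.70 over the 10 genes and -0.03 over all genes tested. This comparison shares its libraries with the other comparisons and is not a separate line of evidence.

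**Figure D1:**
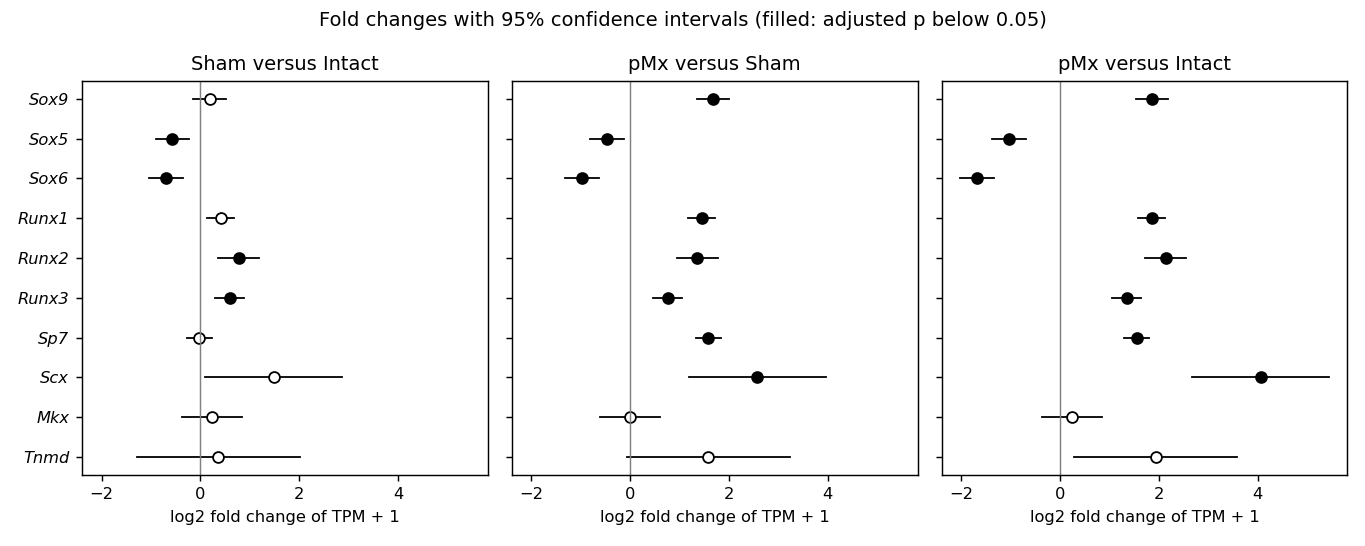
Log2 fold changes of TPM + 1 for the 10 genes (rows) in sham versus intact, pMx versus sham and pMx versus intact, with 95% confidence intervals from limma and filled points for an adjusted p below 0.05. The points of Sox5 and Sox6 lie below 0 in every panel, those of Runx1, Runx2 and Runx3 lie above 0 in every panel, and the intervals of Scx and Tnmd are the widest.

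Sox9, the chondrocyte master factor, was low in both kinds of synovium and rose in regenerative tissue. Its level was 0.68, 0.69 and 0.71 TPM in the intact libraries, 1.23, 1.06 and 0.55 TPM in the sham libraries and 4.55, 5.07 and 5.92 TPM in the pMx libraries. All 3 pMx libraries were above every other library, while the sham libraries fell on both sides of the intact ones. The ratio of mean TPM was 5.47 for pMx over sham, and the log2 fold change of 1.68 had a 95% interval of 1.35 to 2.00 (adjusted p = 7.92e-05). Between sham and intact, the log2 fold change was 0.18 (95% interval -0.14 to 0.51, adjusted p = 0.446). Adding 1 before taking logs shrinks the fold change of a gene that is this close to 1 TPM, and with pseudocounts of 0.1 and 0.01 it was 2.39 and 2.51 in pMx versus sham. In whole tissue, a change in the number of cells of a type cannot be told apart from a change in RNA per cell.

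**Figure D2:**
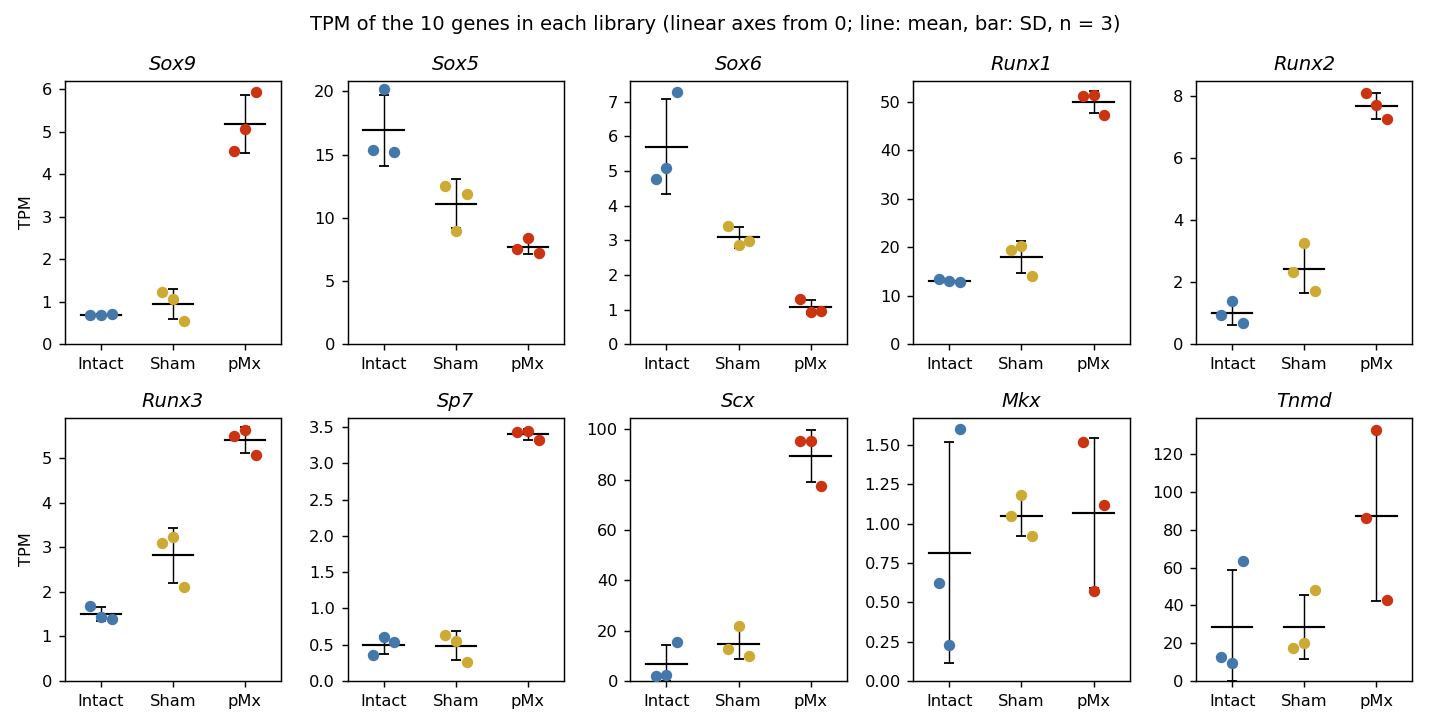
TPM of each of the 10 genes by group on linear axes from 0, with 1 point per library, a line at the mean and a bar of 1 SD (n = 3), where bars that would reach below 0 end at the axis. The pMx points of Sox9, Sp7, Runx1, Runx2, Runx3 and Scx lie above all others, those of Sox5 and Sox6 lie below all others, and the points of Mkx and Tnmd overlap between groups.

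Sox5 and Sox6, which act together with Sox9 in cartilage, went the other way and were highest in intact synovium. Sox5 measured 15.38, 20.17 and 15.19 TPM in the intact libraries, 12.53, 8.92 and 11.89 TPM in the sham libraries and 7.56, 8.38 and 7.19 TPM in the pMx libraries. Its groups were in the order intact, sham and pMx with no overlap. Sox5 fell by 0.57 on the log2 scale from intact to sham (adjusted p = 0.0433) and by 0.47 from sham to pMx (adjusted p = 0.0395), each with a standard error of 0.149. Both calls were close to the threshold. The call in pMx versus sham was lost without sham replicate 1, sham replicate 3 or any of the pMx replicates (adjusted p 0.0605 to 0.130), and the call in sham versus intact was lost when any 1 library other than intact replicate 3 was left out (adjusted p 0.0559 to 0.128).

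Sox6 measured 4.76, 5.08 and 7.28 TPM in the intact libraries, 3.42, 2.86 and 2.97 TPM in the sham libraries and 1.31, 0.93 and 0.97 TPM in the pMx libraries. The groups did not overlap, and the mean in intact synovium was 5.33 times that in regenerative tissue. Intact replicate 3 was the highest intact library, and without it the intact mean was 4.92 TPM. Sox6 fell by 0.70 on the log2 scale in sham versus intact (adjusted p = 0.0230) and by 0.98 in pMx versus sham (95% interval -1.33 to -0.64, adjusted p = 0.0013). Leaving out intact replicate 3 gave a log2 fold change of -0.54 in sham versus intact (adjusted p = 0.0196). Without sham replicate 1, 2 or 3 the call in sham versus intact was lost (adjusted p 0.0571 to 0.0856), while the call in pMx versus sham held in each of the 9 fits that left out a library. The latter fold change was -1.45 with a pseudocount of 0.1 and -1.53 with 0.01.

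TPM is scaled by transcript length, so the levels of the 3 Sox genes can be set against each other within a library. Sox9 made up 3.00% ± 0.308 of their summed TPM in intact synovium, 6.33% ± 2.45 in sham synovium and 37.1% ± 4.36 in regenerative tissue (mean ± SD, n = 3 each). Its share was 2.66 to 3.27% over the intact libraries, 3.57 to 8.26% over the sham libraries and 33.9 to 42.0% over the pMx libraries, with no overlap. The difference in share was 30.7 percentage points between pMx and sham and 3.33 between sham and intact (both exact permutation p = 0.1, two-sided, and 0.1 after adjustment over the 3 pairs of groups). With 3 libraries against 3, 0.1 is the smallest p that this test can give.

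The summed TPM of Sox9, Sox5 and Sox6 was 23.3 ± 2.56 in intact synovium, 15.1 ± 2.18 in sham synovium and 14.0 ± 0.491 in regenerative tissue (mean ± SD, n = 3 each). The range of this total in the pMx libraries (13.42 to 14.38 TPM) lay inside that of the sham libraries (12.84 to 17.18 TPM), unlike the share of Sox9. Sox5 still held the largest share in each group, with means of 72.4%, 73.2% and 55.2%, and Sox6 held 24.6%, 20.5% and 7.71%. For each unit of Sox9 there were 29.6, 36.6 and 31.6 units of Sox5 plus Sox6 in the intact libraries, 13.0, 11.1 and 27.0 in the sham libraries and 1.95, 1.84 and 1.38 in the pMx libraries.

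**Figure D3:**
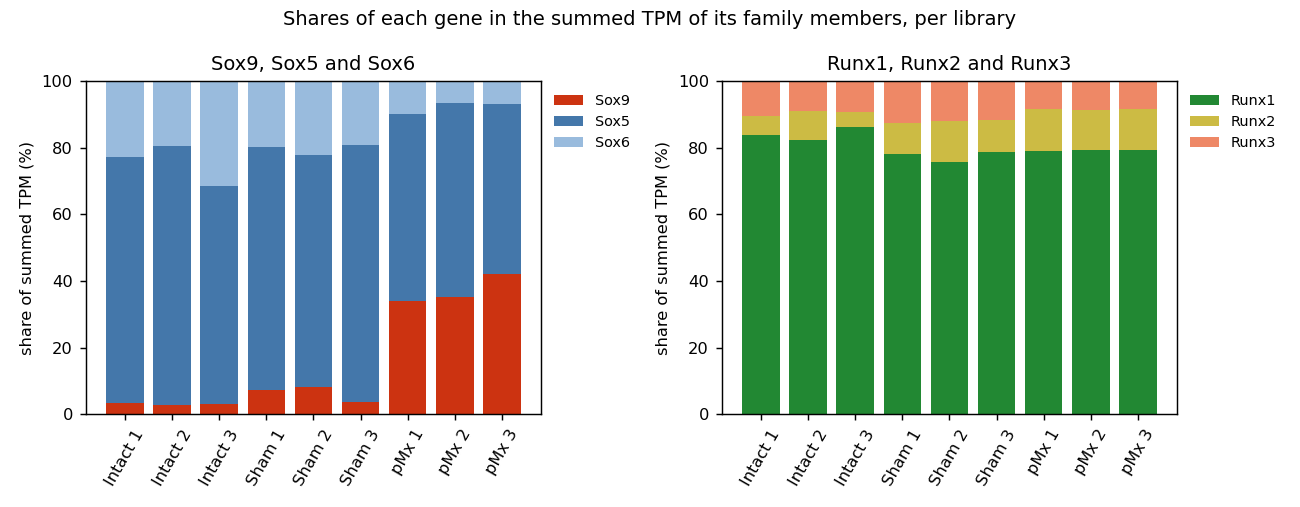
Share of each gene (%, vertical axis) in the summed TPM of Sox9, Sox5 and Sox6 (left) and of Runx1, Runx2 and Runx3 (right), with 1 stacked bar per library. Sox9 takes 33.9 to 42.0% of the left bars in the pMx libraries and at most 8.26% in the others, while Runx1 takes 75.7 to 86.1% of every bar on the right.

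Sp7, the osteoblast factor that acts after RUNX2, had the lowest mean of the 10 genes in both kinds of synovium and rose in regenerative tissue. It measured 0.36, 0.60 and 0.54 TPM in the intact libraries, 0.64, 0.55 and 0.26 TPM in the sham libraries and 3.43, 3.45 and 3.32 TPM in the pMx libraries. The intact and sham libraries overlapped, and the pMx libraries lay above them, with an SD of 0.070 TPM (n = 3). The ratio of mean TPM was 7.03 for pMx over sham, with a log2 fold change of 1.58 (95% interval 1.32 to 1.83, adjusted p = 3.83e-05). With pseudocounts of 0.1 and 0.01 that fold change was 2.65 and 2.89, beside 2.65 and 2.66 for Scx, so the order of the genes by fold change depends on the pseudocount. Between sham and intact, the log2 fold change was -0.02 (95% interval -0.28 to 0.23, adjusted p = 0.923).

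Runx1, the family member best known from blood formation, was the most abundant of the 3 Runx genes in each library. It measured 13.46, 13.05 and 12.79 TPM in the intact libraries, 19.34, 20.26 and 14.17 TPM in the sham libraries and 51.23, 51.43 and 47.25 TPM in the pMx libraries. The groups did not overlap, although sham replicate 3 was close to the intact libraries. Runx1 rose by 1.44 on the log2 scale in pMx versus sham (95% interval 1.17 to 1.72, adjusted p = 7.25e-05). In sham versus intact the log2 fold change was 0.41 with an adjusted p of 0.0595. That value passed the threshold with a minimum mean of 1 TPM (0.0478), with median-of-ratios rescaling (0.0297), with quantile normalization (0.0241) and without sham replicate 3 (log2 fold change 0.56, adjusted p = 0.00745).

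Runx2, the osteoblast and hypertrophy factor, measured 0.93, 1.38 and 0.67 TPM in the intact libraries, 2.32, 3.26 and 1.72 TPM in the sham libraries and 8.09, 7.69 and 7.24 TPM in the pMx libraries. The groups were in the order intact, sham and pMx with no overlap. Runx2 rose by 0.78 on the log2 scale from intact to sham (adjusted p = 0.0299) and by 1.36 from sham to pMx (adjusted p = 0.000648), each with a standard error of 0.182. With pseudocounts of 0.1 and 0.01 these were 1.22 and 1.30 from intact to sham and 1.66 and 1.70 from sham to pMx. The call in sham versus intact was lost without intact replicate 1 or 3, sham replicate 1 or 2, or pMx replicate 1 or 2 (adjusted p 0.0505 to 0.0917).

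Runx3 measured 1.68, 1.44 and 1.40 TPM in the intact libraries, 3.10, 3.23 and 2.12 TPM in the sham libraries and 5.50, 5.63 and 5.07 TPM in the pMx libraries. The order of the groups was the same, again with no overlap. Runx3 rose by 0.60 on the log2 scale in sham versus intact (adjusted p = 0.0229), a call that was lost without intact replicate 2, sham replicate 1 or sham replicate 2 (adjusted p 0.0676 to 0.0856). It rose by 0.76 in pMx versus sham (95% interval 0.46 to 1.05, adjusted p = 0.00215).

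T and NK cells also express Runx genes, and 10 of their markers summed to 7.61 to 13.6 TPM in the intact libraries, 20.6 to 22.8 TPM in the sham libraries and 19.96 to 21.85 TPM in the pMx libraries. Of these markers 4 rose and 1 fell in sham versus intact, and 1 rose and 1 fell in pMx versus sham. The 9 macrophage markers summed to 1270 to 2019 TPM in the intact, 2104 to 2166 TPM in the sham and 1379 to 1907 TPM in the pMx libraries, so neither sum was higher in the pMx libraries than in all sham libraries. The macrophage list did not move as 1 block, since Cd68 (0.47) rose and Cd163 (-2.24), C1qb (-0.67) and C1qc (-0.73) fell in pMx versus sham. Cd68, singled out after its values were seen, measured 147.13, 166.50 and 137.70 TPM in the sham and 227.77, 208.60 and 189.68 TPM in the pMx libraries, with no overlap. The 6 measured osteoclast markers summed to 278 to 391 TPM (intact), 613 to 665 TPM (sham) and 807 to 896 TPM (pMx). This is the order of Runx1, Runx2 and Runx3, but most of each sum was Ctsk. The 2 markers that rose in pMx versus sham were Ctsk and Acp5. Acp5 overlapped, at 55.20 to 101.63 TPM in the sham and 100.73 to 135.73 TPM in the pMx libraries. Calcr and Ocstamp were below 1 TPM in all libraries. The part of these cell types in the Runx results was not tested.

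The summed TPM of the 3 Runx genes was 15.6 ± 0.649 in intact synovium, 23.2 ± 4.58 in sham synovium and 63.0 ± 3.02 in regenerative tissue (mean ± SD, n = 3 each). Runx1 made up 84.0% ± 1.93 (SD, n = 3), 77.5% ± 1.56 and 79.3% ± 0.205 of it in these groups, differing by -6.51 percentage points between sham and intact and by 1.76 between pMx and sham (both exact permutation p = 0.1, two-sided, the smallest possible). Runx2 held 6.33%, 10.4% and 12.2% and Runx3 held 9.65%, 12.1% and 8.56%. Runx3 had a higher mean than Runx2 in the intact and sham groups, whereas in the pMx group each Runx2 value exceeded each Runx3 value.

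Cbfb encodes the shared partner that RUNX proteins need for stable DNA binding. It measured 45.14, 46.64 and 50.89 TPM in the intact libraries, 51.36, 45.13 and 46.56 TPM in the sham libraries and 53.31, 49.58 and 54.25 TPM in the pMx libraries, with a log2 fold change of 0.13 in pMx versus sham (adjusted p = 0.182). The ratio of summed Runx TPM to Cbfb TPM was 0.356, 0.340 and 0.292 in the intact libraries, 0.482, 0.593 and 0.387 in the sham libraries and 1.22, 1.31 and 1.10 in the pMx libraries. Runx transcripts thus outnumbered Cbfb transcripts in the pMx libraries and in none of the others.

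Because the 3 Runx genes moved in the same direction, promoter sequences were read from RefSeq windows of 300 bases (250 before and 50 after each gene start, assembly GRCr8, which is not the build mRatBN7.2 behind the expression values). There were 9 such windows for 6 of the 10 genes (Sox6, Runx1, Runx2, Runx3, Mkx and Tnmd). A RUNX motif, searched as ACCACA on either strand (TGTGGT on the other), was found 3 times in the first Runx2 window and 2 times in the first Runx3 window, and in none of the other 7 windows. Over all 33469 windows, 17.3% held at least 1 match, 2.02% at least 2 and 0.209% at least 3. A SOX motif, searched as ACAAAG on either strand, was found once, in the Sox6 window (18.8% of all windows held it). The E-box CATCTG, the form bound by scleraxis, was found in none of the 9 windows (16.6% of all windows). A match of letters describes the sequence and does not show that a factor binds there.

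The Runx2 and Runx3 windows shared a run of 18 bases that held 2 of these motifs side by side. This run was picked as the longest common to a Runx2 and a Runx3 window, and no other pair of genes was searched. Of the 33469 windows, 2 held the run, namely those it was picked from. That count is therefore no test of how particular the run is to these genes. The run is shown in capitals, with 6 bases on each side, because it is the longest sequence these windows had in common. It began 25 bases past the start of Runx2 (chr9:23665077-23665106, plus strand, in the transcribed part) and 137 bases before the start of Runx3 (chr5:152644127-152644156, plus strand).
Runx2: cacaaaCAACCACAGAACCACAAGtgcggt
Runx3: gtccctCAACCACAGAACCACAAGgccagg

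The 250 bases before each start follow, with the RUNX motif in capitals, to show where the motifs lie. The Runx2 stretch (chr9:23664808-23665057, plus strand) held 1 of its 3 motifs and the Runx3 stretch (chr5:152644020-152644269, plus strand) held both of its motifs.
Runx2: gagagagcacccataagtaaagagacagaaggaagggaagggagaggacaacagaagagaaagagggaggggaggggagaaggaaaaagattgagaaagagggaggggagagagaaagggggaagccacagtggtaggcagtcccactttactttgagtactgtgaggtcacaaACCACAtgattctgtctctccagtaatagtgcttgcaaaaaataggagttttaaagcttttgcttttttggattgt
Runx3: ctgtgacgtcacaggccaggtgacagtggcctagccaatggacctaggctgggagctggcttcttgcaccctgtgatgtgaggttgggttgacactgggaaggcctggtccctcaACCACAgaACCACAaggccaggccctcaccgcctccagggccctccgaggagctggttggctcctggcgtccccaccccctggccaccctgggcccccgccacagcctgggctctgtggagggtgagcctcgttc

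Scx, the tendon and ligament progenitor factor, was the most abundant of the 10 genes in regenerative tissue by its mean. It measured 1.97, 2.16 and 15.62 TPM in the intact libraries, 12.68, 21.70 and 10.04 TPM in the sham libraries and 95.29, 95.12 and 77.28 TPM in the pMx libraries. All pMx libraries were above all others, whereas intact replicate 3 lay within the sham range. Scx rose by 2.57 on the log2 scale in pMx versus sham (95% interval 1.19 to 3.96, adjusted p = 0.0107). Without intact replicate 3 the adjusted p was 0.000132 at the same log2 fold change. That library is in neither group, but it enters the spread that the main fit estimates over all 9 libraries. In sham versus intact the log2 fold change was 1.49 (adjusted p = 0.147), and without intact replicate 3 it was 2.30 (adjusted p = 0.00354).

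Tnmd, the late tendon marker, varied widely within each group. It measured 12.69, 9.24 and 63.57 TPM in the intact libraries, 17.52, 19.96 and 48.27 TPM in the sham libraries and 86.34, 132.71 and 42.65 TPM in the pMx libraries. The groups overlapped, since pMx replicate 3 was below sham replicate 3 and intact replicate 3. The log2 fold change in pMx versus sham was 1.58 (95% interval -0.07 to 3.23, adjusted p = 0.125). It passed the threshold in the fit without intact replicate 3 (adjusted p = 0.0295) and in the fit of only the 6 libraries of these groups (adjusted p = 0.0435). Its log2 fold change was 1.58 in both. Intact replicate 3 is in neither group, but it enters the spread that the main fit estimates over all 9 libraries. In sham versus intact the log2 fold change was 0.36 (95% interval -1.29 to 2.01, adjusted p = 0.793), and it was 1.18 without intact replicate 3 (adjusted p = 0.170).

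Mkx, the factor that keeps tendon cells from the cartilage fate, stayed near 1 TPM and showed no difference that these libraries could resolve. It measured 0.62, 0.23 and 1.60 TPM in the intact libraries, 1.05, 1.18 and 0.92 TPM in the sham libraries and 1.52, 0.57 and 1.12 TPM in the pMx libraries. The groups overlapped throughout, and the highest value was that of intact replicate 3. It had a log2 fold change of -0.01 in pMx versus sham (95% interval -0.62 to 0.60, adjusted p = 0.981) and 0.24 in sham versus intact (95% interval -0.36 to 0.85, adjusted p = 0.604), the latter being 0.54 without intact replicate 3 (adjusted p = 0.106). The interval leaves room for a change of about 0.6 on the log2 scale in either direction, and the sign in pMx versus sham turned with quantile normalization (0.18).

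In intact replicate 3, the library with 53099 TPM of skeletal muscle genes, Scx, Tnmd and Mkx each had the highest value of the intact group. Sox6 (7.28 TPM) and, by a small margin, Sox9 (0.71 TPM) were highest there too. Of the 19 other tendon and ligament genes tested, 5 (Six2, Eya1, Kera, Thbs4 and Tppp3) were highest within the intact group in that library, while 9 were lowest there and 5 lay between. Six2 and Kera are given as examples of the first kind, chosen after their values were seen. Six2 measured 0.38, 0.10 and 4.18 TPM in the intact libraries, 0.56, 1.00 and 0.54 TPM in the sham libraries and 8.05, 6.64 and 7.51 TPM in the pMx libraries. Kera, which encodes the proteoglycan keratocan, measured 12.96, 4.92 and 73.36 TPM, then 17.95, 17.98 and 49.68 TPM, and then 20.78, 33.49 and 16.95 TPM in these groups. Kera and Tnmd were thus highest in the same library of each group, namely intact 3, sham 3 and pMx 2.

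In the other groups the muscle sum was 1692, 3644 and 325 TPM in the sham libraries, where Tnmd was highest in the library with the lowest sum, and 3121, 3700 and 105 TPM in the pMx libraries, where Tnmd was highest in the library with the highest sum. Scx was above all sham libraries in pMx replicate 3, at a muscle sum of 105 TPM. The part of muscle tissue in the values of Scx, Tnmd, Mkx and Sox6 was not tested.

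**Figure D4:**
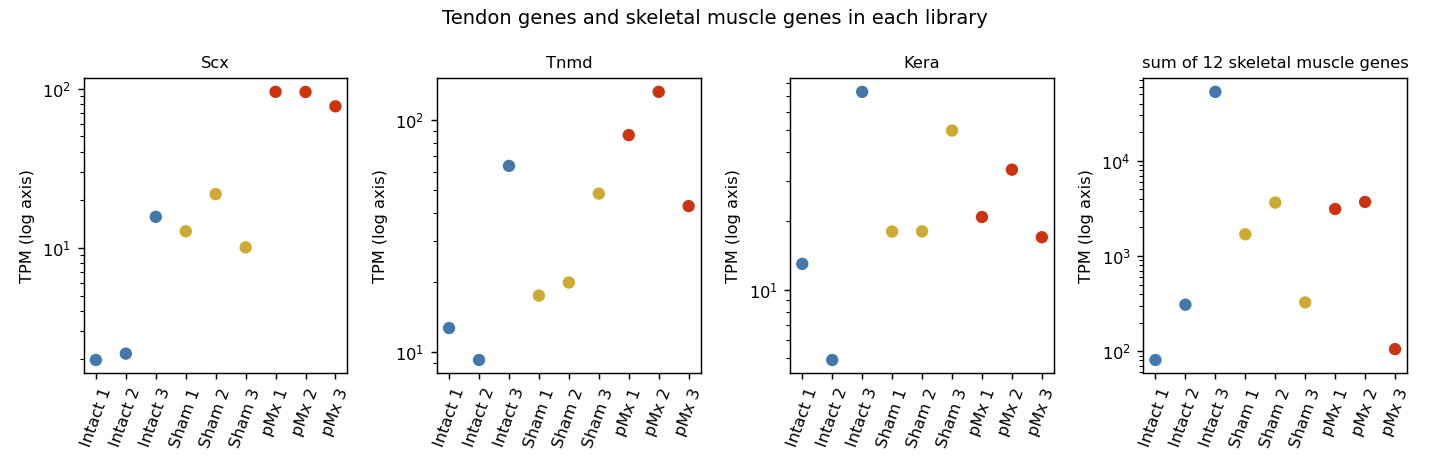
TPM of Scx, Tnmd, Kera and the sum of 12 skeletal muscle genes in each library, on log axes, colored by group. Intact 3 holds the highest value of the intact group in each panel, while the pMx libraries hold the 3 highest values for Scx only.

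Against intact synovium, regenerative tissue had Scx higher by 4.06 on the log2 scale (95% interval 2.68 to 5.44, adjusted p = 0.000624) and by 4.87 without intact replicate 3 (adjusted p = 7.36e-06). Runx2 rose by 2.14 (adjusted p = 2.75e-05), Sox9 by 1.86 (adjusted p = 1.63e-05), Runx1 by 1.85 (adjusted p = 7.54e-06), Sp7 by 1.56 (adjusted p = 1.11e-05) and Runx3 by 1.35 (adjusted p = 4.85e-05). Sox6 fell by 1.68 (adjusted p = 3.60e-05, with a log2 fold change of -1.52 without intact replicate 3) and Sox5 fell by 1.03 (adjusted p = 0.000531). These 8 calls held in each of the 9 fits that left out a library. The log2 fold change of Tnmd was 1.94 with an adjusted p of 0.0523, and it was 2.75 without intact replicate 3 (adjusted p = 0.00327) and 2.37 without pMx replicate 3 (adjusted p = 0.0428). It also passed the threshold with pseudocounts of 0.1 and 0.01 (adjusted p = 0.0471 and 0.0477) and with a minimum mean of 1 TPM (0.0403). The log2 fold change of Mkx was 0.23 (95% interval -0.38 to 0.84, adjusted p = 0.504), and it was 0.53 without intact replicate 3 (adjusted p = 0.0587).

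By mean TPM, the order of the 10 genes in intact synovium was Tnmd, Sox5, Runx1, Scx, Sox6, Runx3, Runx2, Mkx, Sox9 and Sp7. The libraries of neighbours in this order overlapped for Tnmd and Sox5, Runx1 and Scx, Scx and Sox6, Runx2 and Mkx, and Mkx and Sox9. Without intact replicate 3 the order was Sox5 (17.8 TPM), Runx1 (13.3), Tnmd (10.97), Sox6 (4.92), Scx (2.07), Runx3, Runx2, Sox9, Sp7 and Mkx. In sham synovium the order was Tnmd, Runx1, Scx, Sox5, Sox6, Runx3, Runx2, Mkx, Sox9 and Sp7, and only Sox5 and Sox6 and then Runx2 and Mkx were separated by a gap. In regenerative tissue it was Scx, Tnmd, Runx1, Sox5, Runx2, Runx3, Sox9 and Sp7, followed by Sox6 and Mkx with equal means of 1.07 TPM. The libraries overlapped there for Scx and Tnmd, Tnmd and Runx1, Sox5 and Runx2, Runx3 and Sox9, and Sox6 and Mkx. Among all genes of a library, Scx was on average at percentile 41.2 in intact, 58.5 in sham and 90.9 in regenerative tissue, and Sox9 was at percentile 24.0, 25.1 and 41.3.

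The genes that these factors are known to act on, or that mark the same lineages, were counted from lists of cartilage, tendon and bone genes. Of 25 cartilage matrix and growth plate genes tested, 7 rose, 4 fell and 14 did not pass in pMx versus sham. Over all genes tested, 17.7% rose and 18.9% fell. The median log2 fold change of the list was 0.02. Acan (aggrecan, 3.43), Col11a1 (3.30), Col27a1 (1.66) and Hapln1 (link protein, 1.5) rose most, and Cytl1 (-4.12), Ucma (-3.07), Cnmd (chondromodulin, -0.83) and Col9a1 (-0.40) fell most. Col2a1, the collagen that defines hyaline cartilage and a direct SOX9 target, measured 0.89, 0.56 and 0.64 TPM in the pMx libraries and 0.14, 0.46 and 2.26 TPM in the sham libraries. Col10a1, the marker of hypertrophic chondrocytes and a RUNX2 target, was at most 0.04 TPM in these 6 libraries. Sox9 and Runx2 were thus higher in tissue in which both of these collagens were below 1 TPM.

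Of 19 tendon and ligament genes other than Scx, Mkx and Tnmd, 10 rose, 5 fell and 4 did not pass in pMx versus sham. Among all genes tested, 17.7% rose and 18.9% fell. This list had a median log2 fold change of 1.40. The largest increases were those of Col12a1 (3.63), Tnc (tenascin C, 2.96), Thbs2 (2.61) and Col5a1 (2.37), and the largest decreases those of Col14a1 (-1.02), Eya2 (-0.86), Egr1 (-0.86) and Tppp3 (-0.82). In sham versus intact, 10 of the 19 rose and none fell, against 6.73% and 5.97% of all genes tested. The median of the 19 was 0.65 there. Many of these genes encode matrix proteins that other fibroblasts make as well.

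Of 22 osteoblast and mineralization genes tested, 7 rose, 5 fell and 10 did not pass in pMx versus sham. For all genes tested the shares were 17.7% higher and 18.9% lower. The median of the list was 0.16. Mmp13 (collagenase 3, 2.60), Vdr (1.28), Cdh11 (0.97) and Alpl (alkaline phosphatase, 0.94) rose most, and Smpd3 (-3.57), Omd (-2.90), Phex (-2.22) and Dlx3 (-0.97) fell most. The late osteoblast gene Bglap (osteocalcin) measured 0.85, 0 and 0.40 TPM in the sham and 0.47, 0 and 0 TPM in the pMx libraries. Ibsp (bone sialoprotein) measured 0.90, 0.49 and 0.39 TPM in the sham and 1.76, 1.04 and 1.28 TPM in the pMx libraries. The libraries of Ibsp did not overlap, as for Sp7 and Runx2, but its log2 fold change of 0.57 did not pass (adjusted p = 0.286). The 7 osteoblast and osteocyte markers summed to 12.9 to 18.6 TPM in the intact, 11.1 to 11.95 TPM in the sham and 4.97 to 7.06 TPM in the pMx libraries. Phex was the only 1 of the 7 that passed in pMx versus sham, and without it the sums overlapped, at 3.92 to 6 TPM in the sham and 4.36 to 6.27 TPM in the pMx libraries.

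**Figure D5:**
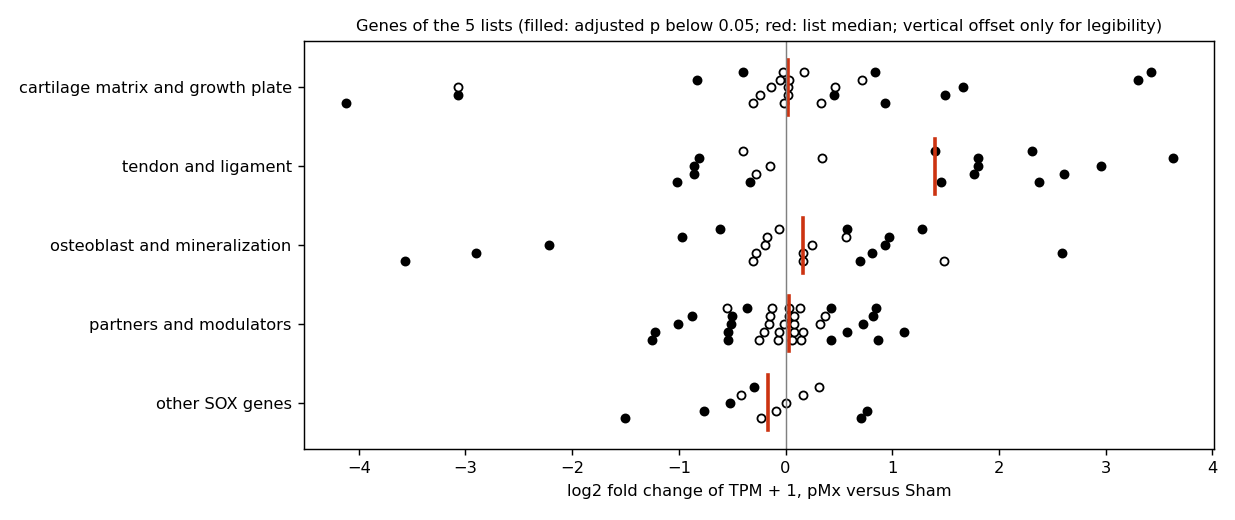
Log2 fold change of TPM + 1 in pMx versus sham (horizontal axis) for each tested gene of 5 lists, with filled points for an adjusted p below 0.05 and a red line at each list's median. The median of the tendon and ligament list is 1.40, and those of the other lists lie between -0.16 and 0.16.

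Of 37 partners and modulators of these factors, 8 rose, 9 fell and 20 did not pass in pMx versus sham. Across all genes tested, 17.7% rose and 18.9% fell. The list had a median of 0.04. Trps1 (1.11) and Twist1 (0.82), which both restrain RUNX2, rose together with Snai2 (0.87) and Gli3 (0.84). Twist2, looked at after its values were seen, went the other way (-0.54, adjusted p = 0.00523). Id2 (-1.25), an inhibitor of basic helix-loop-helix factors such as SCX, fell together with the corepressor Tle4 (-1.23), the Notch effector Hes1 (-1.01) and the Hedgehog effector Gli1 (-0.88). The other Id genes of the list did not pass, with -0.55 for Id1 (adjusted p = 0.205) and 0.08 for Id3 (adjusted p = 0.799). Mean TPM in the pMx libraries was 42.45 for Id2, 96.95 for Id1 and 446.76 for Id3. Of the E proteins that pair with SCX, looked at after their values were seen, Tcf3 rose by 0.72 (adjusted p = 0.000468), while Tcf4 measured 0.14 (adjusted p = 0.403) and Tcf12 measured 0.08 (adjusted p = 0.408) on the log2 scale.

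The rest of the SOX family was set beside Sox9, Sox5 and Sox6. Of 12 other SOX genes tested, 2 rose, 4 fell and 6 did not pass in pMx versus sham, with a median of -0.16. By the same rule 17.7% of all genes tested rose and 18.9% fell. Sox4 (0.76) and Sox12 (0.71) rose, and Sox10 (-1.50), Sox2 (-0.77), Sox15 (-0.52) and Sox8 (-0.30) fell. Sox10 is a factor of Schwann cells, and the 8 Schwann cell markers, Sox10 among them, summed to 265 to 475 TPM in the intact, 321 to 401 TPM in the sham and 79.2 to 96.1 TPM in the pMx libraries, and 6 of the 8 fell in pMx versus sham. The 8 adipocyte markers all fell in pMx versus sham, from 5778 to 6819 TPM in the sham libraries to 401 to 663 TPM in the pMx libraries. Their part in the values of Sox5, Sox6 and the other SOX genes was not tested.

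The sum of the chondrocyte markers was carried by Ucma, a gene of growth plate chondrocytes that measured 18.35 to 23.69 TPM in the sham and 1.49 to 1.99 TPM in the pMx libraries. The 7 measured markers summed to 32.1 to 111 TPM in the intact, 23.2 to 31.8 TPM in the sham and 8.89 to 10.54 TPM in the pMx libraries, where Sox9 was highest. Without Ucma the sums of the other 6 overlapped, at 3.06 to 19.6 TPM in the intact, 4.88 to 8.11 TPM in the sham and 6.90 to 9.05 TPM in the pMx libraries. Matn3 (matrilin 3) rose, 3 of the 7 fell in pMx versus sham, Cnmd was at 0 in all 3 pMx libraries, and Col9a1 and Snorc were below 1 TPM in all 9 libraries.

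As a description, the genes most like Sox9, Scx, Tnmd and Runx2 across the 9 libraries were found by Pearson correlation of log2(TPM + 1) over 13200 genes with a mean of at least 1 TPM. The 9 libraries fall into 3 groups, so genes that differ between the groups correlate for that reason alone. For Sox9 they were Csmd2 (r = 0.996), Tpp2 (0.994) and Ccnyl1 (0.994). For Scx they were Basp1 (0.997), Vash2 (0.991) and Nsl1 (0.985), and Basp1 followed Scx into intact replicate 3, with 21.90, 23.38 and 61.88 TPM in the intact libraries. For Runx2 they were Ccnf (0.998), Zfp57 (0.998) and Tpbg (0.997). For Tnmd the values were lower, namely Mypop (0.936), Col11a2 (0.895) and Vars2 (0.888). Col11a2, a cartilage collagen, was highest in intact replicate 3 and sham replicate 3 within their groups, as Tnmd was. In the pMx group Col11a2 was highest in replicate 1 (3.32 TPM, against 2.71 and 2.35 TPM), whereas Tnmd was highest in replicate 2.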

How the data were processed

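RNA was sequenced from 9 libraries, 3 each of intact synovium, sham synovium and pMx regenerative tissue, grouped by their titles. The authors deposited TPM values for 17602 genes, rounded to 2 decimals and summing to 1000000 per library. The submitters' processing notes name HISAT2 2.0.4 and the build mRatBN7.2. The counting tool, the annotation and the use of strand are not given in the sources used here. TPM values keep no read numbers, so depth is unknown.

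From the deposited TPM, log2(TPM + 1) was fitted for 16512 genes above 0 TPM in at least 3 libraries with limma 3.58.1 under R 4.3.3 (1 mean per group over all 9 libraries, eBayes with trend, Benjamini-Hochberg adjustment over all genes tested in a comparison). An adjusted p below 0.05 was called. Unless another test is named, every adjusted p is from this fit. The calculation was tested on simulated data. Shares were compared by exact permutation tests (SciPy 1.17.1). Matplotlib 3.10.9 drew the figures. Promoter windows were RefSeq's (GRCr8).

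The 10 genes and the lists were chosen with earlier results of these data known. All 10 are named, and of each list up to 4 genes that rose and 4 that fell, by the largest log2 fold change in pMx versus sham. Defining genes near 0 are named too, and so are the 3 genes most like Sox9, Scx, Tnmd and Runx2. Other genes are said to be chosen after their values were seen. Cbfb and the markers are given with the results they touch.

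Alternatives were leaving out each library, quantile normalization, median-of-ratios rescaling, no filter or a minimum mean of 1 TPM, a pseudocount of 0.1 or 0.01, only the 6 libraries compared, eBayes without trend or robust, the replicate number as a block, the DEG rule, and a log2 ratio in place of a share. Chosen after seeing the data were the DEG rule under each of these settings, marker sums without Ucma or Phex, and the intact order without intact replicate 3.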

Additional observations from a re-analysis of the deposited data

How the results depend on the processing

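The DEG rule, which adds an absolute log2 fold change above 1, moved the counts to 5 of the 10 genes in pMx versus sham and to 0 of them between sham and intact, and to 1355, 323 and 2360 of all genes in pMx versus sham, sham versus intact and pMx versus intact, against 6046, 2097 and 8350 by adjusted p alone. Fitting only the 6 libraries compared gave 0 of the 10 genes and 687 of all genes in sham versus intact, with adjusted p of 0.106 for Sox5, 0.0703 for Sox6, 0.0854 for Runx2 and 0.0711 for Runx3. Joined to the other settings, a combination chosen after seeing the data, the DEG rule gave 5 to 6, 0 to 1 and 7 to 9 of the 10 genes in pMx versus sham, sham versus intact and pMx versus intact.

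Leaving out each library gave 7 to 9 of the 10 genes in pMx versus sham, 0 to 4 in sham versus intact and 8 to 9 in pMx versus intact, and 4466 to 7482, 628 to 2969 and 7097 to 8916 of all genes. The count of all genes in sham versus intact was 1091 without intact replicate 2, 734 without sham replicate 1 and 628 without sham replicate 2. Signs turned only for genes that had not passed: Mkx in pMx versus sham (-0.17 to 0.18 on the log2 scale, and 0.18 with quantile normalization), in sham versus intact (-0.0036 to 0.54) and in pMx versus intact (-0.015 to 0.53), Tnmd in sham versus intact (-0.15 to 1.18) and Sp7 in sham versus intact (-0.099 to 0.091). The difference in share kept its sign, at 28.3 to 32.3 percentage points for Sox9 and 0.871 (without sham replicate 2) to 2.34 for Runx1 in pMx versus sham.

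The titles link same-numbered libraries by nothing but the number. Between pMx and sham, their deviations from the group means had correlations of 0.03, 0.37 and 0.48. These were 0.00, -0.40 and -0.49 between sham and intact, and -0.38, -0.44 and -0.66 between pMx and intact. Deviations within a group are tied to each other, so these values cannot show whether same-numbered libraries were paired. With the replicate block, 7, 3 and 8 of the 10 genes passed in these comparisons, and 5901, 1585 and 8208 of all genes. Sox5 was the gene lost (adjusted p = 0.0769 and 0.0863), and in pMx versus sham it was also lost with quantile normalization (0.0507). The other alternatives left the counts of the 10 genes within 1 of those reported, although a minimum mean of 1 TPM left Mkx out and tested only 9. Rescaling moved the median of all genes by at most 0.06. Depth is unknown, so the precision of genes near 1 TPM, such as Sp7, Sox6, Mkx and Sox9 in synovium, rests on the spread of 3 libraries alone.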
